A study of Homo sapiens with 6 samples.

Results

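Cells of SK-N-BE(2)-C, a neuroblastoma line of human origin, were compared after treatment with TSA (trichostatin A, an HDAC inhibitor) and with DMSO, its solvent control, in 2 libraries each. The libraries were made with Seq-Well S3, which pairs each cell with a barcoded bead in an array of wells. A barcode was taken as a cell where it had 500 or more genes and no more than 20% of its unique molecular identifiers (UMIs) in the 13 mitochondrial genes. This rule gave 1861 and 3132 DMSO cells and 2467 and 3292 TSA cells. These 10752 cells were part of 17589 in the 6 libraries of the series, whose other 2 libraries were treated with E6R and entered the low-count filter, the scaling and the estimate of the spread between replicates, but not the contrast. All libraries were of the same line, so the comparison is of 1 line. Neither dose nor duration of treatment is stated in the labels. The labels do not say that the replicates came from separate cultures, so p-values measure only the spread between these libraries, which may be technical.

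Histone deacetylases (HDACs) remove acetyl groups from lysines of histones and of many other proteins. Some of the zinc-dependent enzymes, such as HDAC1 and HDAC3, work largely inside corepressor complexes such as Sin3, NuRD, CoREST and NCoR/SMRT. Transcription factors bring these complexes to promoters and enhancers. Trichostatin A is a hydroxamic acid that binds the zinc ion in the catalytic site of zinc-dependent deacetylases, so that acetylation increases. Genes are known to be both activated and repressed after it. Neuroblastoma arises from the sympathoadrenal lineage of the neural crest, and lines of the adrenergic type express a circuit of transcription factors, among them HAND2, GATA3 and TFAP2B, together with enzymes and transporters of catecholamines.

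Each library's cells were added up to 1 UMI sum per gene before testing. The sums were 4206366 and 4793493 UMIs for DMSO and 14282282 and 13318200 for TSA, with medians of 1268 and 1054 UMIs per DMSO cell and 1728 and 1876 per TSA cell. No pair of replicates agreed within counting noise, since the chi-square per degree of freedom was 17.1 between the DMSO libraries and 36.6 between the TSA libraries. The DMSO libraries stood apart from each other at some lineage genes: DBH, dopamine beta-hydroxylase, was at 194 CPM (counts scaled to a common library size with TMM factors) in replicate 1 and at 724 CPM in replicate 2. The 11 genes fixed as neuroblastoma markers summed to between 3578 and 4596 CPM in the 4 libraries, with none at 0 UMIs. CHGA and CHGB took a large part of these sums, at 1908 and 864 CPM in TSA replicate 1. Of the 11 genes 2 were called lower under TSA and 0 higher, so the sums do not show that the markers moved together. Summed levels were 0.85 to 4.18 CPM for 5 immune markers, 0.304 to 1.49 CPM for 3 epithelial markers, and 18.9 to 122 CPM for 4 fibroblast markers. The 3 endothelial markers summed to 49.5 CPM in DMSO replicate 1 and to between 4.02 and 11.5 CPM in the other 3 libraries. Between 11 and 38 cell barcodes were shared by each pair of the 4 libraries, and the cells concerned held at most 2.37% of a library's UMIs. Leaving them out gave 4974 called genes in place of the 4975 described below. Mitochondrial genes took 5.83% and 6.2% of the DMSO sums and 6.08% and 9.71% of the TSA sums (exact two-sided permutation test p = 0.667; 2 libraries against 2 cannot go below 0.33).

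Of 16763 genes tested, 4975 (29.7%) passed an adjusted p of 0.05 in edgeR's quasi-likelihood test. Under TSA 2720 of them were higher (16.2%) and 2255 were lower (13.5%). These shares, which are not matched for level, are the background for each list below. The genes that rose had a median log2 fold change of 1.43 with quartiles of 1.03 and 2.23, and those that fell had a median of -1.49 with quartiles of -2.24 and -1.07. At least 2-fold changes were seen in 2106 rises and 1812 falls, at least 8-fold changes in 394 rises and 220 falls, and at least 16-fold changes in 201 rises and 61 falls. In all 4975 genes the TSA libraries lay both above or both below the DMSO libraries. That also held for 36.7% of all tested genes in the upward and 34.6% in the downward direction. The direction of small changes rested on the scaling: with library totals in place of TMM the median of all log2 fold changes moved from -0.01 to -0.32, and 33.8% of calls were higher in place of 54.7%. Calls numbered 1416 and 1769 when TSA replicate 2 or 1 was left out, and 2508 and 2696 when DMSO replicate 1 or 2 was.

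**Figure D1:**
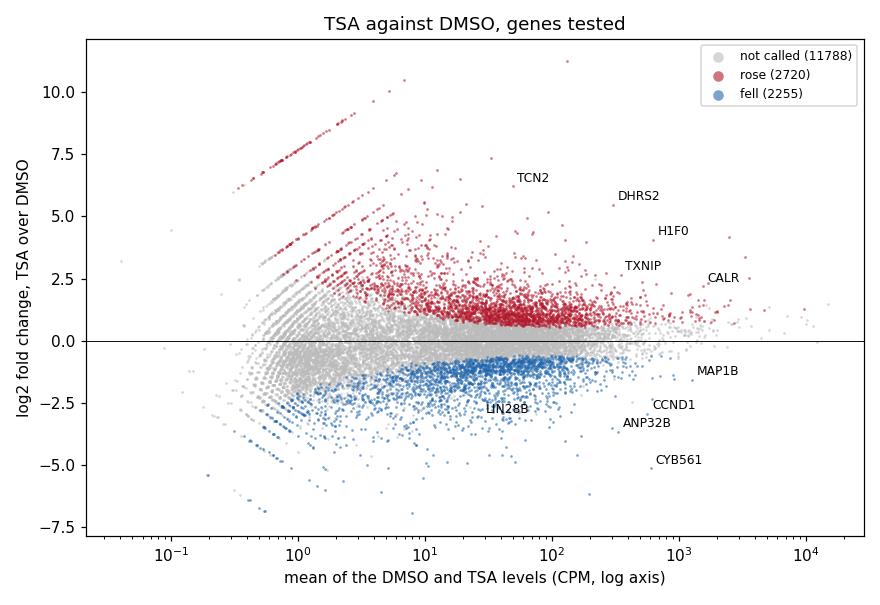
Each point is a tested gene, with its mean level on a log axis in CPM and its log2 fold change of TSA over DMSO; red points rose (2720), blue points fell (2255) and grey points were not called. Rises reach further from 0 than falls, and of the called genes at 500 CPM or more 74 are red and 14 blue.

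By mean level, the share of calls that were higher was 51.7% below 5 CPM, 49.3% between 5 and 20 CPM, 54% between 20 and 100 CPM, 65.5% between 100 and 500 CPM, and 84.1% above 500 CPM, where 74 genes rose and 14 fell. Protein-coding genes were called in 32.8% of 13789 cases. Long noncoding RNAs were called in 15.1% of 2724 cases, with a median mean level of 1.54 CPM. Above a mean of 20 CPM, 47.7% of 111 long noncoding RNAs and 39.7% of 7313 protein-coding genes were called, and 43.4% of the former calls and 57.9% of the latter were higher. By chromosome, the share of calls that were higher ranged from 41.2% on chromosome 18 to 67.6% on chromosome 19, where 255 genes rose and 122 fell. These shares are descriptions without a test.

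The promoters of the first 3 genes in each direction that had an entry in the RefSeq promoter table (GRCh38.p14) are shown because they introduce the genes whose levels differed most, and because they differ in base composition. Each runs 5′ to 3′ on the gene's own strand from 250 bases before the start site to 50 bases after it. Capitals mark the GC box GGGCGG, the CCAAT box and the TATA box TATAAA, each on either strand.
RTBDN (rose, chr19:12835379-12835678, minus strand): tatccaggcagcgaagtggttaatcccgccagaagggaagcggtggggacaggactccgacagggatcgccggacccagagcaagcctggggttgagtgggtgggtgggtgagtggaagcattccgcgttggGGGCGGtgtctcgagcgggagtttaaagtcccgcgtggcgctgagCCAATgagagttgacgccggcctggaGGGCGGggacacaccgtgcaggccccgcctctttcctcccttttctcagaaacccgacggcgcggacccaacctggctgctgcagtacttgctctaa
DHRS2 (rose, chr14:23629865-23630164, plus strand): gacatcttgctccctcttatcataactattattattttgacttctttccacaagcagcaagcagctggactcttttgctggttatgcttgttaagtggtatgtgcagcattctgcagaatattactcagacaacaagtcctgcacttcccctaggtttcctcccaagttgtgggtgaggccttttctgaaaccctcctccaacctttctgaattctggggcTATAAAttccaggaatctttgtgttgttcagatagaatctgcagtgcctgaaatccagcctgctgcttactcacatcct
SLC17A7 (rose, chr19:49441478-49441777, minus strand): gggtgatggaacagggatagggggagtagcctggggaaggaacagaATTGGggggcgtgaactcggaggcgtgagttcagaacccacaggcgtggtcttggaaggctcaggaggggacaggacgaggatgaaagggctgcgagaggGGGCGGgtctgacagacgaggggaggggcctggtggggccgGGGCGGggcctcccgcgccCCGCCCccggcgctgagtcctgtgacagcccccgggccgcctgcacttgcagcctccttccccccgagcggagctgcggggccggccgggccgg
CYB561 (fell, chr17:63446590-63446889, minus strand): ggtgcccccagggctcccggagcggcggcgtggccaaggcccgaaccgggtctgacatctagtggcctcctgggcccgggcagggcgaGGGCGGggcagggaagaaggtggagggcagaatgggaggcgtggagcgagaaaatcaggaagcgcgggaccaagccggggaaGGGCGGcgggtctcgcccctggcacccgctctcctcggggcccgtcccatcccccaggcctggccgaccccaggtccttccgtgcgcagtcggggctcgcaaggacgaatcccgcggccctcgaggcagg
CCDC102A (fell, chr16:57536522-57536821, minus strand): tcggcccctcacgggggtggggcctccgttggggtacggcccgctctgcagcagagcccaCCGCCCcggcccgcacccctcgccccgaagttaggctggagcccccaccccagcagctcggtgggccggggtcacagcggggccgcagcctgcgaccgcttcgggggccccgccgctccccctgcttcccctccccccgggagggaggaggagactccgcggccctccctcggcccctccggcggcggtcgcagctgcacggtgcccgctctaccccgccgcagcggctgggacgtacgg
PRRT4 (fell, chr7:128361934-128362233, minus strand): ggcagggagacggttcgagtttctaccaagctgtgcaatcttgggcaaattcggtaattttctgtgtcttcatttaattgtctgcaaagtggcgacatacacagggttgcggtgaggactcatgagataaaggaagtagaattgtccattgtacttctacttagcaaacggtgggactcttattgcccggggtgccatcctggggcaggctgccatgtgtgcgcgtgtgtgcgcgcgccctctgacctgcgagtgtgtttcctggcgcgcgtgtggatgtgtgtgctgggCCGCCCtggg

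The DHRS2 window had 44% G and C, no CpG and no GC box, and held a TATA box. The other 5 windows had 54.7% to 78.7% G and C, 17 to 34 CpGs and at least 1 GC box each. In the whole promoter table of 27305 windows, 44.6% held a GC box, 35.7% a CCAAT box and 12% a TATA box on either strand. A comparison of promoters over all tested genes was void, because only 73.7% of them had an entry. Among the 7428 genes whose mean reached 20 CPM, 84.1% had one. In that set CCAAT was present in 45.5% of 1452 promoters of genes that rose, in 30.3% of 1060 promoters of genes that fell and in 39% of 3737 promoters of genes that were not called. The cyclic AMP response element, whose core is TGACGTCA, was found in 5.37%, 2.17% and 3.8% of the same 3 sets, and GC boxes in 75.9%, 68.3% and 73.7%. Median G and C content was 65.3%, 67% and 65.7%. A match is a run of letters in this window and was not tested as a binding site.

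The largest rises among genes whose mean reached 20 CPM were in genes of varied function, all at 85.3 CPM or less under DMSO. TCN2, which encodes the vitamin B12 carrier transcobalamin, was at 0.637 and 1.91 CPM under DMSO and at 98.7 and 95.9 CPM under TSA. RTBDN, the gene of retbindin (ENSG00000132026, chromosome 19, 12825478 to 12835428, minus strand), was at 0.425 and 1.34 CPM and at 35.2 and 47.9 CPM. DHRS2, a short-chain dehydrogenase known as a target of HDAC inhibitors, went from 19.5 and 7.27 to 655 and 539 CPM. The vesicular glutamate transporter gene SLC17A7 (ENSG00000104888, chromosome 19, 49429401 to 49442360, minus strand), normally a mark of glutamatergic neurons, was at 0.212 and 2.3 CPM and at 59.8 and 50.9 CPM. For these 4 genes each TSA library lay more than an order of magnitude above each DMSO library. MIR7-3HG, the host RNA of a miR-7 hairpin, was at 0.212 and 9.56 CPM and at 170 and 193 CPM, and its log2 fold change of 5.18 (SE 1.23) was 4.29 without DMSO replicate 1 and 9.6 without DMSO replicate 2. Its call was lost without DMSO replicate 1 (adjusted p = 0.0652 in edgeR) and without TSA replicate 1 (0.0696) or 2 (0.0843). The lipid droplet coat gene PLIN5 was at 3.19 and 4.97 CPM and at 125 CPM in both TSA libraries. H1F0 (ENSG00000189060, chromosome 22, 37805093 to 37807436, plus strand) encodes the linker histone of differentiated cells and was the most abundant of the 16 largest rises, at 55.9 and 85.3 CPM under DMSO and at 891 and 1489 CPM under TSA (log2 fold change 4.07, SE 0.34, edgeR adjusted p = 0.000685). REEP6, an endoplasmic reticulum shaping protein (ENSG00000115255, chromosome 19, 1490747 to 1497927, plus strand), was at 18.5 and 25.6 CPM and at 355 and 346 CPM. The remaining 8 were CRISPLD2, PARP16, STC1, BAIAP3, SLC16A3, STAC2, FOS and RHPN1, with log2 fold changes between 4.03 and 4.65. PARP16 is a poly(ADP-ribose) polymerase family member of the endoplasmic reticulum, STC1 a secreted glycoprotein hormone and BAIAP3 a protein of dense-core vesicle traffic. FOS was at 23.2 and 6.12 CPM under DMSO, and its log2 fold change of 4.05 was 5.33 without DMSO replicate 1 and 3.3 without DMSO replicate 2.

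The largest falls included several genes of the noradrenergic lineage. SLC6A2, the noradrenaline transporter, went from 226 and 555 CPM to 5.24 and 5.57 CPM. CYB561, which carries electrons into catecholamine vesicles for dopamine beta-hydroxylase, was at 988 and 1367 CPM and at 37.2 and 30 CPM. The nicotinic receptor subunit gene CHRNA3 (ENSG00000080644, chromosome 15, 78593052 to 78621295, minus strand), through which sympathetic ganglia receive their input, was at 358 and 250 CPM and at 12.9 and 12.3 CPM (log2 fold change -4.59, SE 0.26, edgeR adjusted p = 0.000489). PRRT4, a proline-rich transmembrane protein (ENSG00000224940, chromosome 7, 128350325 to 128361685, minus strand), was at 105 and 92.8 CPM and at 3.49 and 3.22 CPM. Neither TSA library came within a factor of 5 of a DMSO library at these 4 genes. ANP32B, a histone chaperone of the acidic leucine-rich family (ENSG00000136938, chromosome 9, 97983361 to 98015943, plus strand), was even between replicates, at 616 and 628 CPM and at 49.4 and 49.2 CPM (-3.66, SE 0.24). FAM30A, annotated among the immunoglobulin heavy chain segments, was at 256 and 225 CPM and at 14 and 15.4 CPM. This set also held CCDC102A, TFAP2B, FAM163A, IGF2BP1, PLXNA4, APLNR, HDAC7 and BCL2. Some of these values rested on DMSO replicate 1. Without it APLNR, the apelin receptor, had a log2 fold change of -2.18 in place of -3.83 (adjusted p = 0.0993 in edgeR), and BCL2 -2.92 in place of -3.74. Both also lost their call when either TSA library was left out (edgeR adjusted p between 0.0502 and 0.133). Of the 16 rises and 16 falls, 27 kept an adjusted p under 0.05 without each DMSO or TSA library in turn, 29 without DMSO replicate 1, 28 without TSA replicate 1 and 27 without TSA replicate 2.

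**Figure D2:**
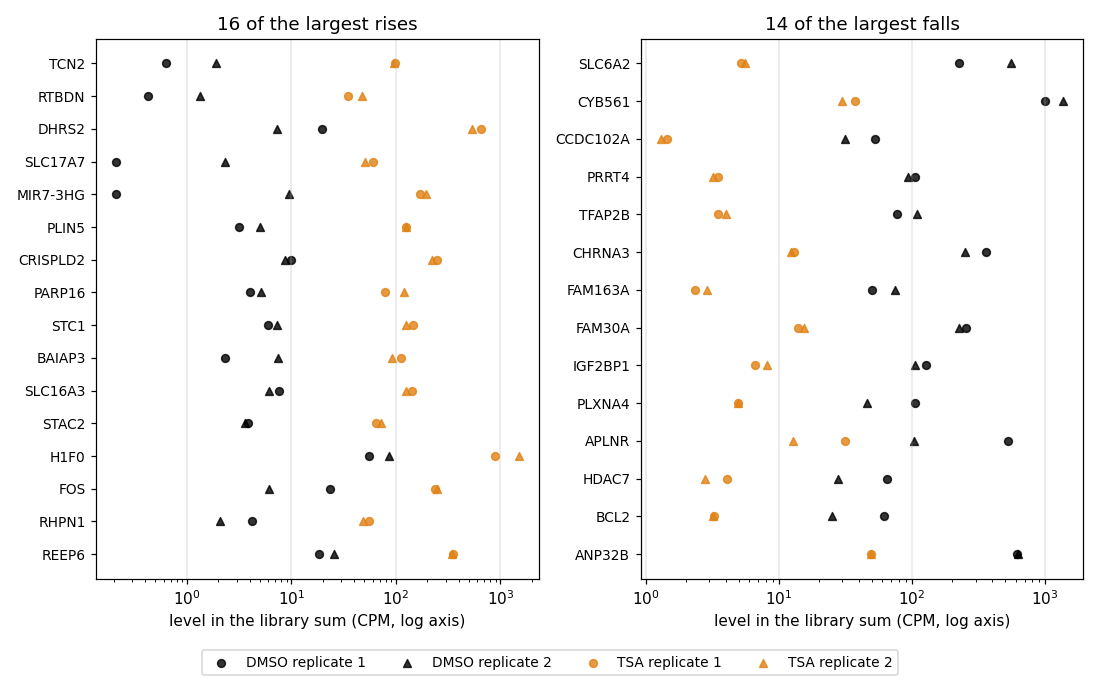
Levels of the 16 largest rises (left) and 14 of the largest falls (right) in each library sum, in CPM on a log axis, with DMSO in black and TSA in orange and replicates 1 and 2 as circles and triangles. Orange and black do not overlap for any of the 30 genes plotted, because only genes without such overlap were eligible. Of all tested genes, 36.7% had both TSA libraries above both DMSO libraries and 34.6% had both below. The DMSO libraries lie far apart for MIR7-3HG (0.212 and 9.56 CPM).

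The changes were also seen as shares of cells. Each cell was thinned to 1000 UMIs, which left 1187 and 1682 DMSO cells and 1852 and 2789 TSA cells and set aside 674, 1450, 615 and 503 shallower ones. A UMI of H1F0 was found in 5.64% and 8.62% of DMSO cells and in 48.7% and 66.1% of TSA cells, with exact 95% binomial intervals from 4.4% to 10.1% over the DMSO libraries and from 46.4% to 67.9% over the TSA libraries. DHRS2 was found in 2.02% and 0.773% of DMSO cells and in 33.9% and 29.1% of TSA cells. CYB561 went the other way, from 57% and 71.8% of DMSO cells to 2.75% and 2.29% of TSA cells. ANP32B was found in 45.9% and 47.7% of DMSO cells and in 5.24% and 3.59% of TSA cells. Without thinning, H1F0 was found in 10.8% and 11.4% of DMSO cells and in 66.6% and 81.7% of TSA cells, DHRS2 in 2.9% and 1.12% and in 51.1% and 49%, CYB561 in 64.5% and 75.6% and in 12.8% and 7.56%, and ANP32B in 59.6% and 53.7% and in 17.1% and 11.7%. Intervals cover counting error only. Free RNA can place a UMI in a cell that does not express the gene, and with a single line there was no cell type that should lack these genes to measure it.

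**Figure D3:**
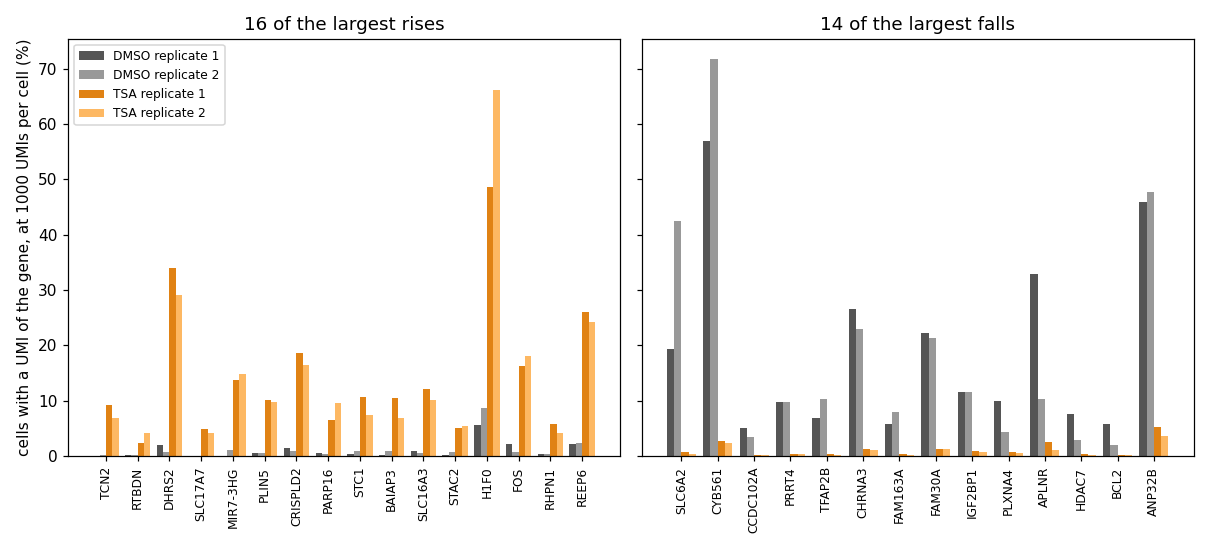
Percent of cells with at least 1 UMI of each gene after thinning to 1000 UMIs per cell, for the 16 largest rises (left) and 14 of the largest falls (right), with 1 bar per library. H1F0 reaches 66.1% of cells in TSA replicate 2, and CYB561 is found in 57% and 71.8% of DMSO cells and in under 3% of TSA cells.

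Genes were then read by function in 52 lists with 1280 members, of which 1279 were found in the files and 1177 were tested. Of these 253 rose and 187 fell, so 37.4% were called against 29.7% of all genes. With library totals 170 rose and 261 fell, which moved the share of called members that were higher from 57.5% to 39.4%. The shares of lists and of all genes were not matched for level. Of all tested genes, 14.2% were called below 5 CPM and 40.1% between 20 and 100 CPM. Above 500 CPM 31.4% rose and 5.93% fell, so lists of abundant genes are to be read beside those shares. Within each list up to 3 called genes per direction whose mean reached 20 CPM are named by rule. Some further called members, abundant or not, are also given. These do not enter the counts of named genes that kept their call. Medians are of log2 fold changes over tested members, to be set beside -0.01 for all genes and beside the shift of -0.32 with library totals.

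**Figure D4:**
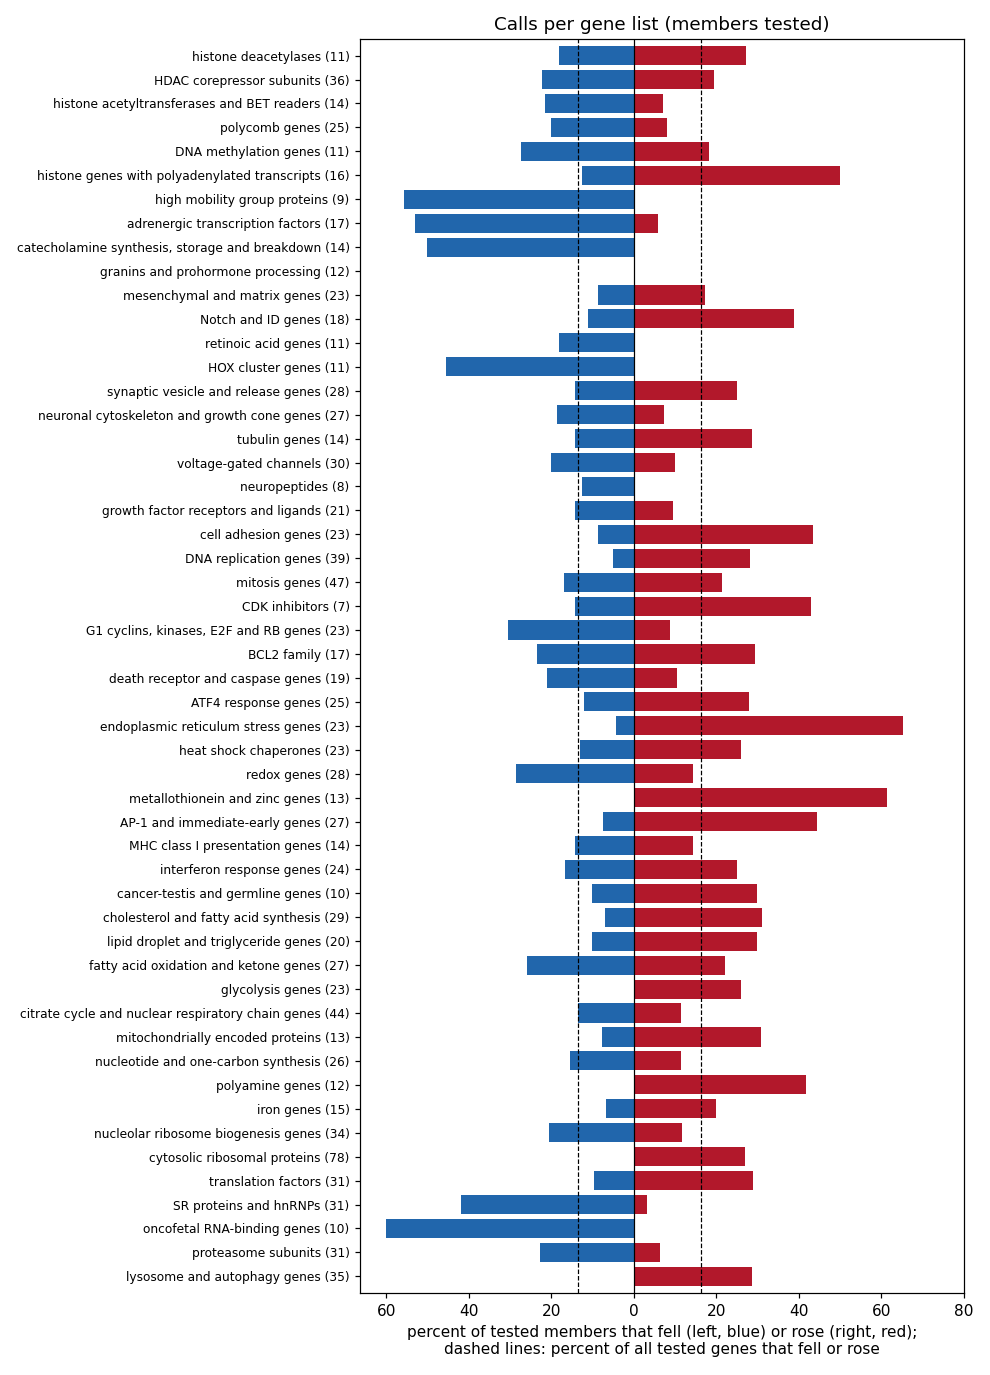
Percent of each list's tested members that fell (left, blue) and rose (right, red) under TSA, with the number tested in brackets; dashed lines mark the shares of all tested genes, 13.5% and 16.2%. High mobility group, adrenergic, catecholamine, SR and hnRNP, and oncofetal RNA-binding lists reach far left, and endoplasmic reticulum stress and metallothionein lists far right.

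Among the targets of the compound, the transcripts of the deacetylases themselves moved in both directions. Of 11 tested HDAC genes 3 rose and 2 fell (median 0.36), and with library totals 2 rose and 3 fell (median 0.05). HDAC3, the enzyme of the NCoR/SMRT complex, was at 34 and 44.2 CPM under DMSO and at 121 and 104 CPM under TSA (1.52, SE 0.21). HDAC1, shared by the Sin3, NuRD and CoREST complexes, was at 66.3 and 51.8 CPM and at 154 and 159 CPM. HDAC6, a mostly cytoplasmic tubulin deacetylase, was at 28.7 and 21.6 CPM and at 50.6 and 51 CPM; its adjusted p was 0.0147, and 0.0599 with library totals. The class IIa genes HDAC7 and HDAC9 fell, HDAC7 from 64.6 and 27.9 to 4.1 and 2.79 CPM and HDAC9 from 23.6 and 11.7 to 5.01 and 3.05 CPM. HDAC2 (0.42), HDAC4 (0.36), HDAC5 (0.28), HDAC8 (-0.45), HDAC10 (-0.87) and HDAC11 (1.19) did not pass in edgeR, with adjusted p between 0.0995 and 0.313; HDAC8 was called lower with library totals (0.0489). Of 36 corepressor subunits, 7 rose and 8 fell (median 0.19; -0.12 with library totals). The Sin3 scaffold gene SIN3A was at 51.6 and 40.5 CPM and at 120 and 146 CPM, and its partner SAP130 rose by a log2 fold change of 1.56. The NCoR/SMRT subunit TBL1XR1 went from 132 and 96.4 to 35.9 and 23.4 CPM, and the NuRD subunit MBD3 from 171 and 130 to 57.3 and 55 CPM. GPS2 (1.31) rose and TBL1X (-1.23) fell in the same NCoR/SMRT complex.

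Writers and readers of chromatin marks were called in both directions. Calls took 28.6% of the acetyltransferase and BET reader list and 28% of the polycomb list, near the 29.7% of all genes. In the DNA methylation list 45.5% were called. Of 14 acetyltransferases and BET readers 1 rose and 3 fell. The coactivator gene CREBBP was at 113 and 103 CPM under DMSO and at 44.4 and 48.1 CPM under TSA (-1.23, SE 0.2), the bromodomain gene BRD3 fell by 1.11 on the log2 scale, and HAT1, which acetylates new histone H4, rose (0.97). Of 25 polycomb genes 2 rose and 5 fell (median -0.01). PHF19, a cofactor of the PRC2 methyltransferase, was at 71.4 and 90.5 CPM and at 12.8 and 9.66 CPM (-2.85, SE 0.28). PCGF2 (-1.12) and PHC2 (-1.05) fell. Among 11 DNA methylation genes 2 rose and 3 fell. DNMT3A (-0.82), TET1 (-1.08) and TET2 (-1.05), an enzyme that sets DNA methylation and a pair that oxidizes it, all fell, and the methyl-CpG binding gene MBD1 rose (1.22). Without DMSO replicate 1 the log2 fold changes were smaller, -0.56 for DNMT3A, -0.85 for TET1 and -0.94 for TET2.

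Histone and high mobility group genes had the largest shares of calls among the chromatin lists. Of 16 histone genes whose transcripts can be polyadenylated, 8 rose and 2 fell (median 1.03). Beside H1F0, HIST1H4C was at 177 and 303 CPM under DMSO and at 575 and 1130 CPM under TSA, and HIST1H1C at 31 and 73.1 CPM and at 166 and 203 CPM. The falls were in variant histones: H2AFZ, which encodes H2A.Z, was at 643 and 373 CPM and at 268 and 153 CPM, and the macroH2A gene H2AFY2 was at 36.5 and 31.6 CPM and at 3.11 and 5.49 CPM. Of 9 high mobility group genes, whose products bend DNA or loosen the nucleosome, 5 fell and none rose (median -1.04; edgeR). HMGB1 was at 1075 and 1001 CPM and at 389 and 392 CPM, HMGN2 at 535 and 509 CPM and at 223 and 285 CPM, and HMGN5 at 200 and 113 CPM and at 28.7 and 29.4 CPM. HMGB3 (-1.8) and HMGN4 (-1.74) were the others. HMGA1, HMGB2, HMGN1 and HMGN3 did not pass, with log2 fold changes between -0.57 and 0.49. Of the 28 chromatin genes picked by the naming rule, 12 kept their call without each DMSO or TSA library in turn, 13 when TSA replicate 2 was left out and 17 when TSA replicate 1 was, and 2 lost it with library totals.

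**Figure D5:**
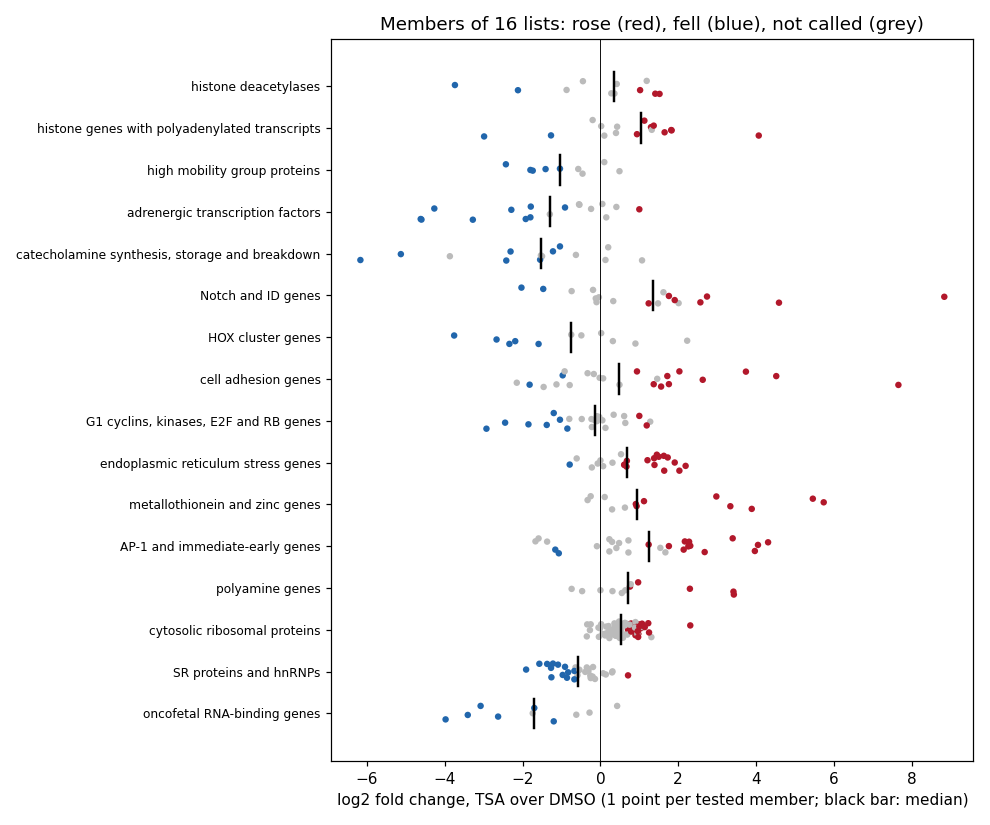
Log2 fold change of every tested member of 16 lists, with red for members that rose, blue for members that fell, grey for members not called and a black bar at the list's median. The medians of the high mobility group (-1.04), adrenergic (-1.3), catecholamine (-1.52) and oncofetal RNA-binding (-1.72) lists lie left of 0 and those of the histone (1.03), Notch and ID (1.36) and AP-1 (1.24) lists right of 0.

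Lineage genes changed unevenly. Of 17 adrenergic transcription factor genes 9 fell and 1 rose (median -1.3). TFAP2B was at 76.9 and 108 CPM under DMSO and at 3.49 and 4.01 CPM under TSA. PHOX2A, a homeobox gene of noradrenergic neurons, was at 72.2 and 62.3 CPM and at 14.4 and 13.1 CPM. TBX2, HAND1, MEIS2, SIX3 and KLF7 also fell. EYA1 rose (1). Other members of the circuit did not pass: HAND2 was at 197 and 263 CPM and at 255 and 355 CPM, GATA3 at 170 and 120 CPM and at 125 and 121 CPM, and ISL1 at 54.4 and 62.2 CPM and at 63.3 and 65.9 CPM. For these 3 genes the log2 fold changes were 0.41, -0.24 and 0.15, with edgeR adjusted p of 0.228, 0.435 and 0.638. Among effector genes the calls were uneven too. Of 14 genes of catecholamine synthesis, storage and breakdown 7 fell and none rose (median -1.52; edgeR). Beside SLC6A2 and CYB561 these included DDC, the decarboxylase that makes dopamine (329 and 262 CPM, then 110 and 92.8 CPM), the biopterin enzymes SPR (-2.42) and QDPR (-1.04), and the vesicular transporter SLC18A1 (-2.31). TH, the rate-limiting enzyme, was at 30.4 and 77.8 CPM and at 23.9 and 14.3 CPM. DBH was at 194 and 724 CPM and at 162 and 158 CPM. Their log2 fold changes of -1.5 and -1.53 were near the list's median, but neither passed (adjusted p = 0.131 and 0.166 in edgeR). The DMSO libraries lay far apart at both genes. None of 12 granin and prohormone genes was called by edgeR, against 29.7% of all genes (median 0.23; -0.21 without DMSO replicate 1). At an unadjusted p under 0.05 there was 1; DESeq2 called 1, and edgeR called 1 with library totals and 3 with no low-count filter. Vesicle protein gene CHGA was at 1660 and 658 CPM and at 1908 and 2095 CPM, and CHGB at 430 and 1334 CPM and at 864 and 1128 CPM.

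Lists of other cell states differed in how many members were called. In the mesenchymal and matrix list 4 of 23 rose and 2 fell, and with library totals 2 rose and 3 fell. The list's median of 0.32 was -0.14 without DMSO replicate 2, and reached 1.61 among the alternatives. VIM, the intermediate filament of mesenchymal cells, was at 977 and 696 CPM under DMSO and at 2840 and 1760 CPM under TSA (1.46, SE 0.31). Its log2 fold change was 1.16 without DMSO replicate 2 and 1.1 without TSA replicate 1. COL6A2 (0.84) and LGALS1 (0.95) rose, though neither passed with library totals (adjusted p = 0.149 and 0.13). NOTCH2 was at 2.76 and 2.87 CPM and at 21 and 24.3 CPM. S100A6 was at 183 and 477 CPM and at 132 and 80.7 CPM. Its log2 fold change of -1.63 was -0.85 without DMSO replicate 2 and -2 without TSA replicate 1. COL1A2 was called lower at under 6 CPM in all libraries. The summed fibroblast markers, given above, overlapped between the groups, and their part in these values was not tested. Of 18 Notch and ID genes 7 rose and 2 fell (median 1.36). HES6, a neurogenic repressor, was at 29.1 and 45.5 CPM and at 142 and 111 CPM, and ID2, an inhibitor of basic helix-loop-helix factors, at 139 and 149 CPM and at 375 and 308 CPM. ID4, HES1, HES4, JAG2 and NOTCH3 rose from lower levels, with none above 25 CPM under TSA. TCF4, an E protein of the basic helix-loop-helix class, was at 403 and 328 CPM and at 90.2 and 88.7 CPM (-2.03, SE 0.2), and the Notch target HEY1 at 94.1 and 114 CPM and at 37.5 and 37.6 CPM. Of 11 tested HOX genes 5 fell and none rose by edgeR. HOXC4, HOXC6, HOXC8 and HOXC9, all of the HOXC cluster, were between 11.5 and 23 CPM under DMSO and between 1.06 and 4.09 CPM under TSA; HOXD3 was the fifth. In the retinoic acid list STRA6, the retinol-binding protein receptor (170 and 101 CPM, then 31.2 and 32.5 CPM), and RXRA (-1.64) fell, and none of 11 rose. Of the 16 named identity genes, 9 kept their call without each DMSO or TSA library in turn and 10 without TSA replicate 2, and 3 lost it with library totals.

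Neuronal genes rose and fell within the same families. Calls took 39.3% of the synaptic list and 42.9% of the tubulin list, against 29.7% of all genes. The cytoskeleton list was at 25.9% and the channel list at 30%. Of 28 genes of synaptic vesicles and release 7 rose and 4 fell, and with library totals 6 rose and 6 fell. SYN1, a vesicle phosphoprotein gene kept silent outside neurons by the REST repressor, was at 5.74 and 14.5 CPM under DMSO and at 98.1 and 121 CPM under TSA (3.42, SE 0.66). Without DMSO replicate 2 its log2 fold change was 4.17, and without TSA replicate 2 its call was lost (adjusted p = 0.0517 in edgeR). The vesicle GTPase genes RAB3A and RAB3B rose by 2.48 and 2.49. RAB3A was at 3.07 without DMSO replicate 2, and it lost its call without DMSO replicate 1 or either TSA library (edgeR adjusted p between 0.0723 and 0.102). CPLX2, a clamp of the fusion machinery, was at 66.5 and 270 CPM and at 23.5 and 29.4 CPM; its log2 fold change of -2.67 was -1.41 without DMSO replicate 2 (adjusted p = 0.18 in edgeR) and -3.31 without DMSO replicate 1, and its call was also lost without TSA replicate 1 (0.178) or 2 (0.149). RIMS2 fell (-1.56). Of 27 genes of the neuronal cytoskeleton and growth cone 5 fell and 2 rose (median -0.2). MAP1B, the most abundant of those called, was at 2052 and 1771 CPM and at 650 and 648 CPM, the neuronal RNA-binding gene ELAVL4 at 75.6 and 109 CPM and at 15.3 and 11.9 CPM, and the peripheral neuron filament PRPH at 208 and 305 CPM and at 54.2 and 35.3 CPM. DPYSL4 rose (1.68). Among 14 tubulin genes 4 rose and 2 fell, and with library totals 3 rose and 6 fell. TUBA4A was at 3.82 and 12.4 CPM and at 76.2 and 66.3 CPM, TUBB2B (1.78) and TUBB4B (1.17) rose, and TUBB6 (-1.42) and TUBA1B (-0.7) fell. Of 30 voltage-gated channel genes 6 fell and 3 rose. CACNA2D1, a calcium channel subunit, was at 104 and 70.8 CPM and at 20.1 and 19.9 CPM, and KCNH2 fell by 1.33 on the log2 scale.

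Receptors and adhesion molecules followed. Of 21 growth factor receptors and ligands 2 rose and 3 fell. NGFR, the low-affinity neurotrophin receptor, was at 9.14 and 11.3 CPM under DMSO and at 63.5 and 55.7 CPM under TSA (2.54, SE 0.24), and IGF1R at 84.1 and 98.9 CPM and at 36.2 and 36.7 CPM (-1.33, SE 0.22). Of 23 neural adhesion genes 10 rose and 2 fell (median 0.49). CNTNAP2 (1.76), NCAM2 (1.72) and CNTN1 rose, CNTN1 from 45.5 and 62 to 145 and 173 CPM. NRCAM was at 327 and 511 CPM and at 120 and 117 CPM, and CDH2, N-cadherin, fell by 0.97. In the neuropeptide list only CRH of 8 tested genes was called, at 10.2 and 13 CPM and at 3.72 and 3.31 CPM. Of the 23 named neuronal genes, 10 kept their call without each DMSO or TSA library in turn, 11 when TSA replicate 2 was left out and 13 when TSA replicate 1 was, and 1 lost it with library totals.

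The cell cycle lists had different balances of rises and falls, and the difference between lists was not tested. Of 23 G1 genes 7 fell and 2 rose (median -0.15). CCND1, the G1 cyclin D1, was at 925 and 1082 CPM under DMSO and at 137 and 125 CPM under TSA (-2.93, SE 0.21, edgeR adjusted p = 0.000489). Its kinase CDK6 was at 195 and 151 CPM and at 32 and 31.5 CPM, and E2F3, which drives S-phase genes, at 57.4 and 54.5 CPM and at 15.6 and 15.4 CPM. CDK2 (1.19) and RB1 (1) rose, but RB1 lost its call with library totals (adjusted p = 0.058 in edgeR) and without any 1 of the 4 DMSO and TSA libraries (0.0622 to 0.0989), and CDK2 without DMSO replicate 2 (0.0507). Of 39 DNA replication genes 11 rose and 2 fell (median 0.39); with library totals 6 rose and 4 fell. The licensing factor CDC6 was at 93.1 and 96.4 CPM and at 231 and 305 CPM, and TK1 and RPA3 rose by 1.55 and 1.88. Thymidylate synthase, TYMS, went against the list, from 71.4 and 72.7 to 9.88 and 9.66 CPM (-2.88, SE 0.19).

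Of 47 mitosis genes 10 rose and 8 fell (median 0.07), and with library totals 5 rose and 10 fell (median -0.24). The checkpoint kinase BUB1 was at 42.7 and 49.9 CPM under DMSO and at 117 and 130 CPM under TSA, and ANLN (1.28) and CDC25C (1.26) rose. PLK1 was at 121 and 126 CPM and at 51 and 55.5 CPM, and CCNB2 (-1.01) and MAD2L1 (-0.89) fell. Among 7 CDK inhibitor genes 3 rose and 1 fell. CDKN3, a phosphatase of cyclin-dependent kinases, was at 106 and 114 CPM and at 298 and 296 CPM, CDKN2D at 13.8 and 21.8 CPM and at 59.6 and 35.6 CPM, and CDKN1C, the p57 gene, rose from under 1 CPM to 4.56 and 3.74 CPM. CDKN1B, the p27 gene, was at 35.7 and 33.7 CPM and at 14.9 and 17.1 CPM. CDKN1A, the p21 gene and a common target of HDAC inhibitors, was at 20.4 and 95.1 CPM and at 128 and 87.4 CPM, so the groups overlapped and it did not pass (0.9, adjusted p = 0.352 in edgeR). With no low-count filter it was called higher (0.83, adjusted p = 0.0109), and its log2 fold change was 0.22 without DMSO replicate 1 and 2.33 without DMSO replicate 2, neither of them called. CDKN2B (0.54) and CDKN2C (-0.44) did not pass either; CDKN2C was called lower with library totals (adjusted p = 0.0364 in edgeR). Of the 18 named cell cycle genes, 10 kept their call without each DMSO or TSA library in turn and 12 without TSA replicate 2, and 1 lost it with library totals.

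Genes of cell death and survival were called in both directions. Calls took 52.9% of the BCL2 family list, against 29.7% of all genes. The death receptor and caspase list, at 31.6%, was near that share. Of 17 BCL2 family genes 5 rose and 4 fell, and with library totals 1 rose and 5 fell. The antiapoptotic genes BCL2 (61.6 and 25.2 CPM under DMSO, 3.27 and 3.22 CPM under TSA) and BCL2L1 (-0.76) fell, and so did the proapoptotic BID, from 63.1 and 44.2 to 10.3 and 7.49 CPM. The proapoptotic BAD (1.08) and the mitophagy genes BNIP3 (1.4) and BNIP3L (1.07) rose. Of 19 death receptor and caspase genes 4 fell and 2 rose (median -0.39). XIAP, an inhibitor of caspases, was at 146 and 101 CPM and at 23.5 and 25.3 CPM, and CFLAR, which blocks caspase-8 at death receptors, at 46.3 and 37.9 CPM and at 4.18 and 5.92 CPM. TNFRSF1A, the TNF receptor, fell by 1.89 on the log2 scale. Of the 9 named survival genes, 3 kept their call without each DMSO or TSA library in turn and 3 without TSA replicate 2. BAD and BNIP3L did not pass in edgeR with library totals (adjusted p = 0.0772 and 0.12). BCL2L1 did not pass in edgeR with all deposited barcodes (adjusted p = 0.0769) or without the 5% of cells with most UMIs (0.0559). Nor did it with library sums thinned to the smallest (0.0629) or with cells thinned to 1000 UMIs (0.106).

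The endoplasmic reticulum stress list had, with TMM scaling, the largest share of members that rose of the 52 lists, 15 of 23, with 1 fall (median 0.68). CALR, a calcium-binding chaperone, was at 508 and 608 CPM under DMSO and at 2316 and 2771 CPM under TSA (2.19, SE 0.25, edgeR adjusted p = 0.00145). HYOU1 was at 132 and 259 CPM and at 575 and 724 CPM, and the ubiquitin ligase gene SYVN1, which clears misfolded proteins from the reticulum, at 10.4 and 8.61 CPM and at 35.9 and 41.8 CPM. XBP1, a transcription factor of the same response, fell from 62 and 66.6 to 38.1 and 36.5 CPM. With library totals 10 rose and 2 fell, a smaller share than the 7 of 13 of the metallothionein and zinc list. Of 25 genes of the ATF4 response 7 rose and 3 fell (median 0.06), and with library totals 5 rose and 6 fell. DDIT4 (1.78), SESN2 (1.33) and the tryptophan tRNA synthetase WARS (112 and 152 CPM, then 314 and 343 CPM) rose, and ATF5 was at 65.6 and 66.9 CPM and at 11.6 and 9.58 CPM. Of 23 heat shock chaperones 6 rose and 3 fell. HSPA2, a chaperone abundant in testis, was at 6.37 and 9.56 CPM and at 103 and 83.4 CPM, HSPA8 at 1233 and 1253 CPM and at 3601 and 4138 CPM, and DNAJB1 at 88.4 and 123 CPM and at 321 and 382 CPM. HSPB1 was at 172 and 156 CPM and at 52.7 and 59.2 CPM, and the mitochondrial HSPE1 fell by 1.3.

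Redox genes had more falls than rises, 8 against 4 of 28. KEAP1, which holds back the NRF2 response, was at 106 and 111 CPM under DMSO and at 26.8 and 23.3 CPM under TSA, while NQO1, a target of NRF2, was at 72.7 and 78.8 CPM and at 26.1 and 13 CPM. GSTO1 fell (-2.11). TXNIP, an inhibitor of thioredoxin and of glucose uptake, was at 93.1 and 99.3 CPM and at 629 and 575 CPM (2.65, SE 0.35). GSTM3 (1.04) and PRDX1 (0.89) rose but did not pass with library totals (adjusted p = 0.0971 and 0.0991). Of 13 metallothionein and zinc genes 8 rose and none fell by edgeR (median 0.93). MT2A, the main metal-binding metallothionein, was at 12.1 and 7.84 CPM and at 83 and 74.6 CPM, its regulator MTF1 (1.12) and the zinc transporter SLC30A9 (0.93) rose, and MT1F, MT1G, MT1X and MT3 were called higher at no more than 30.3 CPM. Of 27 AP-1 and immediate-early genes 12 rose and 2 fell (median 1.24). EGR1 was at 104 and 40.5 CPM and at 339 and 352 CPM, and NR4A1 at 15.9 and 6.89 CPM and at 56.6 and 53.8 CPM. For FOS, EGR1 and NR4A1 DMSO replicate 1 lay above replicate 2, and without replicate 1 the log2 fold change of EGR1 was 3.13 in place of 2.26 and that of NR4A1 3.04 in place of 2.28. Without DMSO replicate 2 that of EGR1 was 1.65 (adjusted p = 0.0516 in edgeR), and its call was also lost without TSA replicate 1 (0.0523) or 2 (0.0611). JUN (0.3) and JUND (0.23) did not pass, and DUSP4 (-1.16) and MAFG (-1.07) fell. Of the 27 named stress genes, 14 kept their call without each DMSO or TSA library in turn, 17 when TSA replicate 2 was left out and 18 each when TSA replicate 1 or DMSO replicate 2 was, and 2 lost it with library totals.

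Immune genes were called in both directions. Calls took 41.7% of the interferon list and 40% of the cancer-testis list, against 29.7% of all genes. The MHC class I list, at 28.6%, was near that share. Of 24 interferon response genes 6 rose and 4 fell (median -0.4; 0.65 with cells thinned to 1000 UMIs and 0.13 without DMSO replicate 1). IRF7, a transcription factor of the interferon response, was at 5.95 and 9.18 CPM under DMSO and at 51.4 and 36 CPM under TSA, and STAT2 rose by 1.55. Of 14 genes of MHC class I presentation 2 rose and 2 fell, and with library totals 1 rose and 3 fell. HLA-E was at 106 and 47 CPM and at 313 and 200 CPM, and TAPBP, the tapasin gene, at 69.9 and 54.9 CPM and at 30.1 and 26 CPM. Of 10 tested cancer-testis genes TEX15, SPAG6 and PRAME rose and BEX1 fell (-0.82), and with library totals 2 rose and 2 fell. TEX15, a germ-cell gene, was at 0.425 and 0 CPM and at 15.8 and 13.6 CPM. Most of that list, 23 of 33 genes, was too low to test. IRF7 kept its call without each DMSO or TSA library in turn, and HLA-E, TAPBP, STAT2 and BEX1 lost it when either TSA library was left out (edgeR adjusted p between 0.0504 and 0.183). HLA-E also lost it without DMSO replicate 2 (0.192) and with library totals (0.0662), and its log2 fold change of 1.75 was 2.48 without DMSO replicate 1.

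Among genes that make and store lipids rises outnumbered falls. Of 29 genes of cholesterol and fatty acid synthesis 9 rose and 2 fell (median 0.27; -0.05 with library totals). TM7SF2, a sterol reductase, was at 7.86 and 14.9 CPM under DMSO and at 77.3 and 73.3 CPM under TSA, the regulator SREBF1 rose by 1.74 and the squalene synthase FDFT1 by 1.42. ELOVL6, which lengthens fatty acids, was at 78.6 and 82.6 CPM and at 25.1 and 22.3 CPM. Of 20 genes of lipid droplets and triglycerides 6 rose and 2 fell. Beside PLIN5 these included PLIN3, at 160 and 86.3 CPM and at 453 and 359 CPM, and the triglyceride lipase PNPLA2, at 7.01 and 8.61 CPM and at 34 and 47.3 CPM. Of 27 genes of fatty acid oxidation and ketone use 6 rose and 7 fell. CPT2 (1.48), ACSL1 (1.42) and ACSL3 (1.41), which activate fatty acids or carry them into mitochondria, rose. ECI1 (-1.22), DECR1 (-1.1) and the ketone-use gene OXCT1 (-1.16) fell.

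Of 23 glycolysis genes 6 rose and none fell by edgeR (median 0.44). SLC16A3, the lactate exporter MCT4, was at 7.65 and 6.12 CPM under DMSO and at 142 and 126 CPM under TSA (4.28, SE 0.41), and ALDOC, the brain aldolase, at 16.4 and 16.3 CPM and at 119 and 132 CPM. ALDOA (2.62) overlaps another gene model on its own strand, and its counts may be split between them. Of 44 genes of the citrate cycle and the nuclear-encoded respiratory chain 5 rose and 6 fell. The citrate cycle genes IDH3A, at 37.6 and 39.4 CPM and at 113 and 112 CPM, SDHA (1.12) and DLST (1.05) rose. The respiratory chain genes NDUFA9 (-1.3) and UQCRFS1 (-1.25) fell. Of the 13 proteins encoded in mitochondrial DNA 4 rose and 1 fell (median 0.85). MT-CO3 was at 4721 and 6667 CPM and at 9732 and 17495 CPM, and MT-ND3 at 650 and 877 CPM and at 1834 and 2930 CPM. In TSA replicate 2 both of these were higher than in replicate 1, as was the mitochondrial share given above, and without it MT-ND4L was at 0.69 in place of 1.32 (adjusted p = 0.153 in edgeR); its call was also lost without DMSO replicate 1 (0.118) or 2 (0.1) and with library totals (0.052). MT-ND6, which lies on the opposite strand of the mitochondrial genome from the others, was at 500 and 281 CPM and at 85 and 174 CPM (-1.59, SE 0.42).

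Smaller metabolic groups held some of the clearest single genes. Of 12 polyamine genes 5 rose and none fell by edgeR (median 0.7). ODC1, the first enzyme of polyamine synthesis, was at 194 and 255 CPM under DMSO and at 1102 and 1112 CPM under TSA (2.3, SE 0.22), and SAT1, which acetylates polyamines for breakdown, at 31.4 and 18.4 CPM and at 300 and 237 CPM (3.43, SE 0.36). The antizyme genes OAZ1 and OAZ2, whose products lead ODC1 to degradation, rose by 0.76 and 0.97, and the oxidase PAOX was at under 1 CPM and at 9.42 and 5.92 CPM. Of 15 iron genes 3 rose and 1 fell, and with library totals 2 rose and 4 fell. TFRC, the transferrin receptor, was at 55.7 and 47.4 CPM and at 198 and 262 CPM, and ACO1, the iron regulatory protein that stabilizes its transcript, at 13.2 and 7.84 CPM and at 54.5 and 54.4 CPM. The mitochondrial iron importer SLC25A37 fell (-0.8). NCOA4, which sends ferritin to lysosomes, rose (0.79), but it lost its call with library totals (adjusted p = 0.16 in edgeR) and without any 1 of the 4 DMSO and TSA libraries (0.0736 to 0.224). Of 26 nucleotide and one-carbon genes 3 rose and 4 fell. The 2 genes of IMP dehydrogenase, the entry to guanine nucleotides, moved apart: IMPDH1 was at 336 and 209 CPM and at 99.8 and 101 CPM, and IMPDH2 at 47.6 and 71.7 CPM and at 118 and 166 CPM. PPAT rose (0.81), and CTPS1 (-0.86) and GMPS (-0.62) fell. Of the 39 named metabolic genes, 15 kept their call without each DMSO or TSA library in turn, 19 without TSA replicate 2, 22 without TSA replicate 1 and 26 without DMSO replicate 1, and 3 lost it with library totals.

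Most calls among the SR protein, hnRNP and oncofetal RNA-binding genes were falls. Of 31 SR protein and hnRNP genes 13 fell and 1 rose (median -0.57). HNRNPA2B1, among the most abundant nuclear RNA-binding proteins, was at 1507 and 1078 CPM under DMSO and at 488 and 514 CPM under TSA, HNRNPH3 at 141 and 116 CPM and at 30.2 and 38 CPM, and HNRNPDL at 206 and 136 CPM and at 62.6 and 52.3 CPM. HNRNPC rose (0.71), with an adjusted p of 0.0368 that was 0.196 with library totals. Of 10 RNA-binding genes of the oncofetal list, which are high in embryonic cells and in many neuroblastomas, 6 fell and none rose by edgeR (median -1.72). IGF2BP1 (ENSG00000159217, chromosome 17, 48997412 to 49055650, plus strand) was at 128 and 105 CPM and at 6.61 and 8.18 CPM (-3.98, SE 0.23, edgeR adjusted p = 0.000489). IGF2BP3 was at 112 and 86.4 CPM and at 17.5 and 14.5 CPM, and LIN28B, which blocks maturation of the let-7 microRNAs, at 54.6 and 45.1 CPM and at 5.7 and 6.09 CPM. MSI2 and TRIM71 also fell. IGF2BP2, of the same family as IGF2BP1, did not pass (0.43).

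Of 78 cytosolic ribosomal protein genes 21 rose and none fell by edgeR (median 0.52). With library totals 7 rose and none fell, with a median of 0.21, so the number that rose depended on the scaling. RPS27 was at 520 and 620 CPM under DMSO and at 1880 and 3767 CPM under TSA (2.31, SE 0.35), RPS18 at 634 and 817 CPM and at 1555 and 1902 CPM, and RPL28 rose by 1.23. Genes of this family have many near-identical processed copies, and how the authors' counting shared reads among them is not stated in the labels. Of 31 translation factors 9 rose and 3 fell, and with library totals 6 rose and 5 fell. EEF2, the ribosomal translocase, was at 1324 and 1312 CPM and at 3168 and 3979 CPM, EIF4A3, of the exon junction complex, at 109 and 102 CPM and at 313 and 315 CPM, and the translation repressor EIF4EBP2 at 135 CPM in both DMSO libraries and at 456 and 482 CPM. EIF2S2 (-0.83), EIF5 (-0.71) and EEF2K (-0.68) fell. Of 34 nucleolar genes 4 rose and 7 fell (median -0.12). UBTF, the activator of ribosomal RNA transcription, was at 173 and 141 CPM and at 32.3 and 35.7 CPM, and DKC1 (-1.28) and MRTO4 (-1.35) fell. NOP2 (1.64), GNL2 (1.09) and BOP1 (1.03) rose. Of the 22 named genes of gene expression, 11 kept their call without each DMSO or TSA library in turn, 12 when TSA replicate 2 was left out and 14 when TSA replicate 1 was, and 2 lost it with library totals.

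In the proteasome list falls outnumbered rises, and in the lysosome list all calls were rises. Of 31 proteasome subunits 7 fell and 2 rose (median -0.19). PSMB6, a catalytic subunit, was at 204 and 223 CPM under DMSO and at 101 and 66.1 CPM under TSA, PSMD7 at 326 and 316 CPM and at 149 and 117 CPM, and PSMA1 fell by 1.29. PSMD2 (0.91) and PSMD6 (0.74) rose, but with library totals neither passed (adjusted p = 0.0646 and 0.144). Of 35 lysosome and autophagy genes 10 rose and none fell by edgeR (median 0.37), and with library totals 7 rose and 2 fell (median 0.06). PSAP, the precursor of the saposins, was at 654 and 730 CPM and at 2225 and 2118 CPM (1.65, SE 0.21). The lysosomal cholesterol carrier NPC2 was at 20.2 and 16.8 CPM and at 79.8 and 52.7 CPM, and the autophagy gene WIPI1 at 16.8 and 9.37 CPM and at 47.9 and 47.7 CPM. Of the 8 named genes of protein turnover, PSAP kept its call without each DMSO or TSA library in turn, 2 kept it without TSA replicate 2, and 3 lost it with library totals.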

How the data were processed

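The deposited matrices held whole-number UMI counts per gene and barcode, not normalized, for 36601 genes and 15009 to 15123 barcodes per library; the authors aligned and counted with STARsolo 2.7.9a on GRCh38, per the submitters' processing notes. Neither the annotation, nor the strand rule, nor the selection of barcodes is given in the sources used here. The cells' counts were added up per library, and the 6 sums were fitted together in edgeR 4.0.16 (R 4.3.3): filterByExpr, TMM, group as the only term, quasi-likelihood test of TSA against DMSO, Benjamini-Hochberg adjustment over 16763 genes at 0.05. The common biological coefficient of variation was 0.288. Adjusted p-values are from this test unless another is named, and printed log2 fold changes are TSA over DMSO. Doublets were not called; a fit without the 5% of cells richest in UMIs was tried instead. On simulated data for this comparison (16470 genes) the test recovered 9% of 100 genes changed 2-fold and 78% of 100 changed 4-fold, and called 4 unchanged genes. Alternatives included DESeq2 1.42.0.

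The members of the gene lists, the lists and the naming rule were chosen with earlier results of these data known. The rule named the 16 largest called rises and falls whose mean reached 20 CPM and whose TSA libraries were both above or both below the DMSO libraries, passing over clone-based names, and up to 3 called members per list and direction at that level. Positions come from GENCODE 29 (GRCh38), which held 98.6% of tested genes. Of 216 named and called genes 149 overlap another gene there, 126 of them on the other strand, and reads of such pairs may not be told apart. Of the list members, 1 was not analysed here. Some named genes are counted but not reported here.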

Additional observations from a re-analysis of the deposited data

Results flagged for a closer look

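Barcodes that did not pass the cell filter entered no test. They held 36.2% and 42.6% of all UMIs in the DMSO libraries and 18.8% and 22.8% in the TSA libraries. The first 8 of the largest rises were also higher under TSA in these small barcodes, which may hold poor cells or free RNA. Mean levels over the 2 libraries, in CPM of the small barcodes' own UMIs, were 4.2 under DMSO and 71.1 under TSA for TCN2 and 1.54 and 20.5 for RTBDN. DHRS2 was at 14.7 and 392, SLC17A7 at 3.35 and 40.4, and MIR7-3HG at 5.26 and 128. PLIN5 was at 16.8 and 109, CRISPLD2 at 13.8 and 147, and PARP16 at 5.73 and 76.8. Both TSA libraries lay above both DMSO libraries for each of the 8 genes. They had been picked for this order in the cells of the same libraries, so it is no independent support. The share of all genes with this order in small barcodes was not computed. The source of these UMIs was not tested.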

How the results depend on the processing

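The number of called genes stayed between 3389 and 6047 in the 14 alternatives that did not leave out a DMSO or TSA library, against 4975. Leaving out a DMSO or TSA replicate gave 1416 to 2696 calls in all, 869 to 1356 higher and 547 to 1450 lower; the lone library of an arm is then assumed to vary like the other groups. Genes called higher, 2720, numbered 1717 with library totals and 1643 with cells thinned to 1000 UMIs. Calls shared with the 4975 had the same direction in every alternative run. Leaving out an E6R replicate gave up to 6028 calls, 3402 higher and 2671 lower. The shared calls numbered 1410 without TSA replicate 2 and 3972 with library totals. With the replicate number as a block there were 6047 calls, 4947 of them shared, no named call was lost, and 4 of the 12 granin genes were called against none. The numbers pair no samples in the labels; same-numbered DMSO and TSA deviations correlated at r = 0.245 over 7428 genes. Of 216 named calls 104 held in every alternative that tested them, 98 were lost without TSA replicate 2 and 20 with library totals. HDAC5 changed sign with library totals (-0.03), as did the medians of the corepressor (-0.12), granin (-0.07), synaptic (-0.05), neuropeptide (-0.08), mitosis (-0.24), BCL2 family (-0.03), ATF4 (-0.25), cholesterol (-0.05), fatty acid oxidation (-0.14), citrate cycle (-0.21), iron (-0.2) and translation factor (-0.22) lists. Of the 52 list medians, 28 kept their sign in every alternative. Simulated 2-fold changes were recovered in 9% of cases. In that simulation only 100 of 16470 genes were changed 2-fold and 100 were changed 4-fold, while 29.7% of genes were called in the data. An adjusted p of 0.05 is harder to reach where fewer genes change. The 9% therefore does not measure how often 2-fold changes were detectable in this comparison.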
